A study of Mus musculus with 8 samples.

Results

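The cytosolic ribosomal protein genes were taken from the gene count table by name. A gene was kept when its symbol began with Rpl or Rps followed by a digit, or was Rpsa, Rplp0, Rplp1 or Rplp2, and when it had at least 500 counts summed over the 8 libraries. Symbols of named pseudogenes (with -ps) and of the S6 kinases (Rps6k) were left out. The rule kept 86 of the 27594 genes in the table, and all 86 were among the 14540 genes tested. By name, 35 belong to the small (40S) subunit and 49 to the large (60S) subunit, while Rps19bp1 and Rpl7l1 carry such a symbol without being ribosomal subunits. Another 4 symbols met the name rule with fewer counts in total, namely Rps4l with 115 counts, Rpl24 with 136, Rpl39l with 36 and Rpl3l with 19. The label therefore held for the set as a whole, with 2 exceptions by name and with 4 members that the GENCODE annotation gives as pseudogenes (Rpl6l, Rpl37rt, Rps3a2 and Rps3a3). The ribosomal proteins encoded by Fau and Rack1 fall outside the name rule and were followed apart.

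The study asked what the transcription factor Foxp1 does in regulatory T (Treg) cells. RNA was sequenced from sorted CD4+YFP+ cells of the spleen and peripheral lymph nodes of C57BL/6 mice aged 6 to 8 weeks. The wild-type (WT) animals were Foxp3-YFP-Cre mice and the Foxp1-deficient (cKO) animals were Foxp1fl/fl Foxp3-YFP-Cre mice, so every group carried the YFP and Cre inserted at Foxp3, and recombination depended on Foxp3 being on. Resting Treg (rTreg) cells were CD44lowCD62Lhigh and activated Treg (aTreg) cells CD44highCD62Llow, which gave 4 groups (WT rTreg, cKO rTreg, WT aTreg and cKO aTreg) of 2 replicate libraries each.

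Ribosomal proteins fold around the ribosomal RNAs to form the subunits that translate mRNA, and most are needed in near equal amounts in every ribosome. Their mRNAs are among the most abundant in a cell and belong to the 5′ TOP class, whose transcripts start with a C followed by a stretch of pyrimidines. Through that stretch, their translation is raised when the kinase mTORC1 is active and held back by the RNA-binding protein Larp1 when it is not. T lymphocytes that leave quiescence make more ribosomes before they divide.

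Libraries held 6373170 to 15268623 counts over genes, with the lowest total in cKO rTreg replicate 1, and replicate 1 was the shallower library in each group. Foxp1 was at 353 and 383 CPM (counts per 1000000, scaled by edgeR's TMM factors) in WT rTreg, 341 and 337 in cKO rTreg, 234 and 230 in WT aTreg, and 126 and 101 in cKO aTreg. These counts cover the whole gene and not the deleted part alone. The 6 Treg markers summed to 2785 to 4310 CPM in every library, and the activation markers Cd44, Icos and Klrg1 to 64.6 to 94.6 CPM in rTreg and 565 to 757 CPM in aTreg libraries, as the labels have it. Xist had 15098 to 21822 counts in the replicate 2 libraries and at most 3 in the replicate 1 libraries, and this RNA is made from the inactive X chromosome of female cells, so the replicate number also separated libraries by sex. The replicates of a group thus came from different animals, although nothing in the sources says which or how many animals gave each library. The p-values measure the spread between these libraries. The comparisons share groups and are therefore not independent of each other.

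A promoter sequence from RefSeq (build GRCm38.p6, 250 bases before to 50 after the annotated start) was matched for 63 of the 86 genes. An unbroken run of at least 5 C or T bases covering the first annotated base was present at an annotated start of 21 of the 63 genes (33.3%), against 11.8% of all 27025 genes in the promoter table. A run of at least 8 C or T bases somewhere from 20 bases before to 10 bases after the start was found in 28 (44.4%) against 14.5% of all genes. The windows of 5 ribosomal protein genes are shown because such a start is the feature of this gene class, with the window of Rpl7l1, the biogenesis factor that shares only the naming, for contrast. Each is printed 5′ to 3′ on the coding strand, and capitals mark the unbroken C/T run over the start base, which is the 21st base.
Rpl28: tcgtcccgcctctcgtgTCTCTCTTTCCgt
Rpl35: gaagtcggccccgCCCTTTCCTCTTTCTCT
Rpl31: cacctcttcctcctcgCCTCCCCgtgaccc
Rplp2: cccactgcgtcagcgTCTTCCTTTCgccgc
Rps6: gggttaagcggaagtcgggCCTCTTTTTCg
Rpl7l1: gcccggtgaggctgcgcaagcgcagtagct
The windows lie at chr7:4792945-4792974 on the plus strand for Rpl28, chr2:39005122-39005151 on the minus strand for Rpl35, chr1:39367831-39367860 on the plus strand for Rpl31, chr7:141447631-141447660 on the plus strand for Rplp2, chr4:86857358-86857387 on the minus strand for Rps6 and chr17:46782647-46782676 on the minus strand for Rpl7l1. Of the fixed motifs searched on both strands of the 300-base promoters, CCGGAAG, the core bound by Ets-family factors, was in 25 of 63 (39.7%) against 9.93% of all genes, and AAGATGG, the core bound by YY1, in 10 of 63 (15.9%) against 7.28%. A match is a description of these letters only. The 21 genes with a C/T run over the start and the 42 without one had median log2 fold changes of 0.22 and 0.24 for cKO against WT in rTreg cells and -0.57 and -0.61 for aTreg against rTreg in cKO cells.

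Per length (FPKM, fragments per 1000 bases of gene and 1000000 counted), the 86 members spanned a 145.9-fold range, with a median of 225 FPKM over the 8 libraries. Rplp1, an acidic protein of the 60S stalk that recruits elongation factors, was highest at a mean of 1502 FPKM. It was followed by Rpl8, a protein near the peptidyl transferase centre, at 1246 FPKM, Rplp0, the base of the stalk, at 1098 FPKM, Rps3a1 at 1073 FPKM and Rps15 at 930 FPKM. Rpl13a, known also for a role in translational silencing after interferon, was lowest at 10.3 FPKM, below Rps19bp1 at 17.1, Rpl23a at 18.3, Rpl22l1 at 19.5 and the pseudogene Rps3a2 at 19.8 FPKM. The order of levels was close to the same in each group: the lowest Pearson r of log2 mean FPKM between any pair of groups was 0.987 across the 86 genes, which are not independent replicates. For Rpl13a and Rpl23a, 57.4% and 77.6% of the 50-base windows of the coding transcript occur in transcripts of other genes, so reads that match more than 1 place could be lost or moved in the counting.

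**Figure D1:**
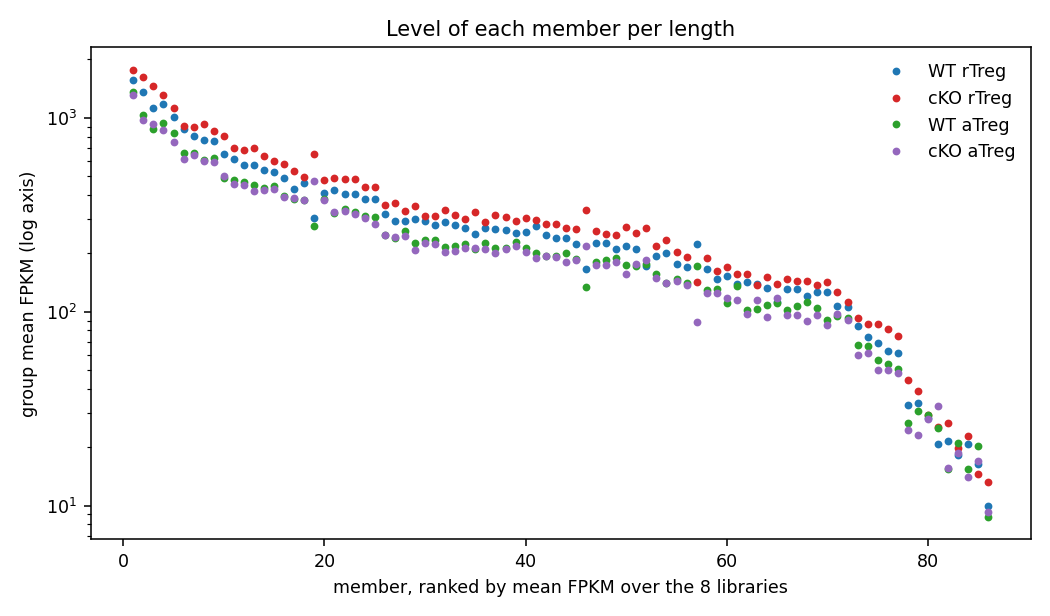
Group mean FPKM (log axis) of each of the 86 members, ranked by the mean over the 8 libraries, with 1 colour per group. Levels ran from 1502 FPKM for Rplp1 to 10.3 FPKM for Rpl13a, and for most members the cKO rTreg point is the highest and the aTreg points are the lowest.

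The members' summed counts took 4.47% and 4.13% of all gene counts in the WT rTreg libraries, 5.22% and 4.88% in cKO rTreg, 3.68% and 3.28% in WT aTreg, and 3.48% and 3.33% in cKO aTreg. Group means were 4.30% ± 0.241, 5.05% ± 0.235, 3.48% ± 0.282 and 3.41% ± 0.105 (SD, n = 2 each). Both cKO rTreg libraries lay above both WT rTreg libraries, and all rTreg libraries lay above all aTreg libraries, while the WT and cKO aTreg libraries overlapped. Replicate 1, the shallower library, had the higher share in every group, and the exact binomial 95% interval of the library with the fewest counts, which covers counting error only, ran from 5.20% to 5.23%. The mean share in cKO rTreg was 1.18 times that in WT rTreg, and aTreg held 0.810 times the rTreg share in WT and 0.675 times in cKO cells. With 2 libraries against 2, an exact permutation test cannot go below p = 0.333. In bulk samples, fewer cells of a type and less RNA per cell cannot be told apart.

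**Figure D2:**
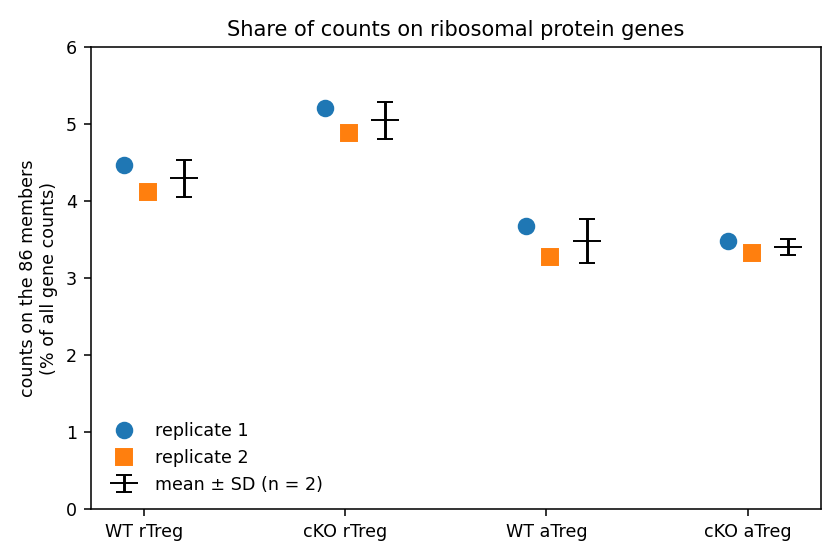
Percent of all gene counts that fell on the 86 members (y axis from 0) in each library, by group, with the replicate shown by shape and the mean and SD beside the points (n = 2). The cKO rTreg libraries, at 5.22% and 4.88%, sit above all others, and the 4 aTreg libraries lie between 3.28% and 3.68%.

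Loss of Foxp1 went with higher ribosomal protein mRNA levels in rTreg cells, by a small amount shared across the set. By edgeR's quasi-likelihood test with the replicate number as a block, 43 of the 86 members rose at a Benjamini-Hochberg adjusted p under 0.05, against 6.57% of all genes tested, and none fell, against 5.45% of all genes. The median log2 fold change of the members was 0.23 (1.17-fold), against 0.00 for all genes, and 84 of the 86 estimates were above 0. At an unadjusted p under 0.05 none fell and 68 rose, against 1991 and 2157 of the 14540 genes tested. None fell with DESeq2 or limma-voom either. The increase was seen on both subunits, with 17 of 35 small and 26 of 49 large subunit genes called. Within replicate 1 the median difference between genotypes was 0.24 and within replicate 2 it was 0.22 on the log2 scale. In both replicates 80 members were higher in cKO, against 5050 of the 14540 genes tested. Without the block no member passed, against 181 of all genes called higher, although 49 did at an unadjusted p under 0.05. The median was then still 0.23. Leaving out WT rTreg replicate 1 or 2 gave medians of 0.20 and 0.24. For cKO rTreg replicate 1 or 2 they were 0.22 and 0.24. In each of these fits nearly all of the 43 calls were lost, and members were called about as often as all genes. With a trend of counts on gene length removed 23 were called higher, against 850 of all genes.

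Several proteins with roles outside the ribosome or at its functional centres were among those called. Rplp0 was at 1904 and 1880 CPM in WT rTreg and at 2665 and 2279 CPM in cKO rTreg. Its groups did not overlap, and it rose by 0.38 ± 0.06 (log2 fold change ± SE, adjusted p = 0.0076). Rpsa, the laminin receptor protein of the 40S subunit, went from 1412 and 1345 CPM to 1854 and 1599 CPM, an increase of 0.32 ± 0.05 (adjusted p = 0.0107). Rps6, the target of the S6 kinases, was at 929 and 902 CPM in WT and 1165 and 1061 CPM in cKO rTreg cells (0.28 ± 0.05, adjusted p = 0.0157). Rps3, which lines the mRNA entry channel and also takes part in DNA repair and NF-κB signalling, was at 1181 and 1194 CPM against 1454 and 1383 CPM (0.26 ± 0.05, adjusted p = 0.0179). In each of these the lower cKO library was above the higher WT library.

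Rpl11 and Rpl5 bind the 5S ribosomal RNA and, when free, inhibit the p53 ligase Mdm2. Rpl11 was at 609 and 611 CPM in WT rTreg and 762 and 710 CPM in cKO rTreg cells and rose by 0.27 ± 0.06 (adjusted p = 0.0298). Rpl5 was at 1078 and 1103 CPM against 1250 and 1146 CPM, a difference of 0.13 ± 0.05 that did not pass (adjusted p = 0.13). Rpl10, whose loading is a late step of 60S maturation, had 540 and 525 CPM against 650 and 628 CPM and rose by 0.26 ± 0.05 (adjusted p = 0.0165). Values for Rps19 (0.16), Rps14 (0.20), Rpl26 (0.19) and Rpl38 (0.20), genes linked to ribosomopathies, p53 translation or patterning, were also above 0 on the log2 scale, with adjusted p from 0.0648 to 0.0924, and did not pass.

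The largest called increase was in Rpl29, a small protein that also binds heparin, with 193 and 200.3 CPM in WT rTreg and 282 and 345 CPM in cKO rTreg cells. Its libraries did not overlap between the genotypes, and its log2 fold change was 0.68 ± 0.16 (adjusted p = 0.0328, and 0.0517 to 0.271 without 1 of the 4 rTreg libraries). Rpl13a had 19.1 and 23.7 CPM against 24.1 and 33.3 CPM (0.42 ± 0.11, adjusted p = 0.0491, and 0.174 with DESeq2), with groups that only just did not overlap. The estimates for Rps2 (2.62), Rps18 (1.68), Rpl12 (-1.15) and Rps27a (0.01) carried standard errors of 0.45 to 1.40 and did not pass. Rps19bp1, which is not a ribosomal protein, was at 14.5 and 13.0 CPM against 12.4 and 12.3 CPM (-0.14 ± 0.14, adjusted p = 0.57).

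Markers of other cells were low but not equal between the genotypes. The 7 myeloid markers summed to 1.84 and 0.785 CPM in WT rTreg and 17.2 and 6.85 CPM in cKO rTreg libraries, and the 3 plasma cell markers to 2.39 and 0.471 CPM against 8.75 and 5.34 CPM. All of these genes were detected in at least 1 library, and their part in the ribosomal protein result was not tested. The myeloid sum was highest in cKO aTreg replicate 1, at 30.6 CPM, where the ribosomal protein share was 3.48% and lay within the range of the WT aTreg libraries.

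**Figure D3:**
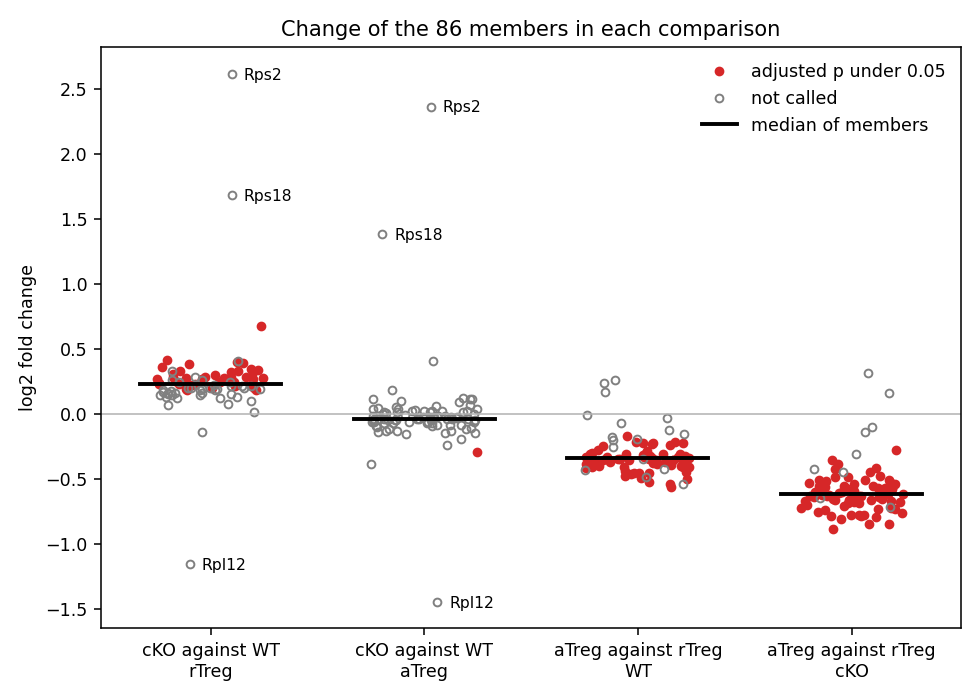
Fitted log2 fold change of each of the 86 members (points) in the 4 comparisons, with filled points for an adjusted p under 0.05 and a bar at the median of the members. The medians are 0.23, -0.04, -0.34 and -0.61 from left to right, and Rps2, Rps18 and Rpl12 lie far from the others without being called.

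In aTreg cells the genotypes differed little. Of the 86 members none rose, against 4.11% of all genes tested, and only Rpl30 fell, against 2.77%, by edgeR's quasi-likelihood test. The median log2 fold change was -0.04, against 0.00 for all genes, with 28 estimates above and 58 below 0. At an unadjusted p under 0.05, 1 member was higher and 3 were lower, against 1879 and 1506 of the 14540 genes tested. Neither DESeq2 nor limma-voom called a member higher. Rpl30, a 60S protein that in yeast represses splicing of its own transcript, was at 360 and 304 CPM in WT aTreg and 271 and 268 CPM in cKO aTreg cells. The groups did not overlap, and it fell by 0.29 on the log2 scale (SE 0.07, adjusted p = 0.0458). That call was lost without the block (adjusted p = 0.267), with median-of-ratios size factors (0.0519) and without any 1 of the libraries other than WT aTreg replicate 2 (0.0714 to 0.2002). Rpl21 had a larger estimate of -0.39 ± 0.12, from 90.3 and 114 CPM in WT to 81.7 and 74.2 CPM in cKO, and did not pass (adjusted p = 0.104). Rps27l, at 19.8 and 20.4 CPM in WT and 26.1 and 27.2 CPM in cKO aTreg cells, had the highest estimate after Rps2 and Rps18 (0.41 ± 0.11, adjusted p = 0.076).

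In WT cells, ribosomal protein mRNAs were lower in aTreg than in rTreg cells. Of the 86 members 69 fell, against 13.6% of all genes tested, and none rose, against 18.2%. The median log2 fold change was -0.34, a 1.27-fold lower level, against -0.0046 for all genes. No member rose at an unadjusted p under 0.05, against 3336 of the 14540 genes tested, nor with DESeq2 or limma-voom. The medians within replicates 1 and 2 were -0.31 and -0.38. Rps19, mutated in Diamond-Blackfan anaemia, went from 653 and 701 CPM in WT rTreg to 456 and 475 CPM in WT aTreg cells. That is a fall of 0.54 ± 0.05 (adjusted p = 2.16e-04), with no overlap of the libraries. Rpl5 had 1078 and 1103 CPM against 777 and 762 CPM (-0.50 ± 0.05, adjusted p = 2.86e-04). Without the block 45 members were called, and 45 were called without WT rTreg replicate 2.

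The same subset difference was called for more members in cKO cells. Between cKO rTreg and cKO aTreg, 77 of the 86 members fell, against 18.2% of all genes tested, and none rose, against 21.9%. The median log2 fold change was -0.61, a 1.53-fold lower level, against -0.02 for all genes. Of the called members 49 fell by at least 1.5-fold, against 3448 of the 14540 genes tested called at that fold in either direction. Only 1 member was higher at an unadjusted p under 0.05, against 3749 of the 14540 genes tested. DESeq2 and limma-voom called no member higher. Rpl31, a protein at the exit of the nascent chain tunnel, had 507 and 427 CPM in cKO rTreg and 275 and 244 CPM in cKO aTreg cells. Its log2 fold change was -0.85 ± 0.05 (adjusted p = 2.36e-05) and both rTreg libraries were above both aTreg libraries. Rpl35, also at the tunnel exit, had 106 and 114 CPM against 63.3 and 59.8 CPM (-0.84 ± 0.07, adjusted p = 9.25e-05). The pseudogene Rps3a3 had 45.9 and 26.9 CPM against 23.1 and 15.7 CPM, with the largest estimate (-0.88 ± 0.15, adjusted p = 0.00271). Rplp0 had 2665 and 2279 CPM against 1539 and 1535 CPM (-0.68 ± 0.06, adjusted p = 8.76e-05). In both genotypes the 5 B cell markers summed to 8.18 to 11.0 CPM in rTreg and 32.97 to 38.1 CPM in aTreg libraries, and their part in the subset differences was not tested.

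The genotype effect in aTreg minus that in rTreg cells was tested in the same fit. It was below 0 for 84 of the 86 members, with a median of -0.26 on the log2 scale against -0.01 for all genes. At an unadjusted p under 0.05, 63 members were lower, against 887 of the 14540 genes tested. None passed the adjusted threshold in either direction, against 0.186% of all genes called higher and 0.144% called lower, and the smallest adjusted p was 0.0534, for Rpl31 (-0.46 ± 0.08), followed by Rpl30 (-0.58 ± 0.10, adjusted p = 0.0559). DESeq2 called 10 members lower against 112 of all genes. EdgeR without a filter on low counts called 15 against 214, and limma-voom none against 22. Whether single members passed thus depended on the tool and on the filter.

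Against these shared shifts, 9 members were called in none of the 4 comparisons between groups. They were Rps2, Rps18, Rpl12 and Rps27a, whose replicates differed most, the retrogene Rps27rt, the paralogs Rps27l and Rpl22l1, and the non-ribosomal Rps19bp1 and Rpl7l1. Over all members the largest ratio between the replicates of a group had a median of 1.13, and it exceeded 2 for 6 members. Rps2 (chr17:24718116-24721929, plus strand, GRCm38), which lies in the mRNA decoding region of the 40S subunit, was at 1070 and 31.8 CPM in the WT rTreg replicates and at 959 and 24.4 CPM in the WT aTreg replicates. In cKO it was at 1377 and 1075 CPM in rTreg and 916 and 806 CPM in aTreg cells. Both low libraries were thus the WT replicate 2 libraries. In the same libraries the row named Rps2-ps10 was high, at 414 and 307 CPM, against 11.4 to 42.96 CPM in the other 6 libraries. Of the 50-base windows in the Rps2 coding transcript, 63.9% occur in Rps2-ps10.

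Rps18 (chr17:33951999-33956001, minus strand), a 40S protein at the subunit interface, was also low in the WT replicate 2 libraries. It had 726 and 94.7 CPM in WT rTreg, 851 and 852 CPM in cKO rTreg, 579 and 71.9 CPM in WT aTreg and 537 and 548 CPM in cKO aTreg cells. The row named Rps18-ps3 was at only 17.8 and 9.16 CPM in the WT replicate 2 libraries, against 2.30 to 8.91 CPM in the others. Rpl12 (chr2:32961559-32965345, plus strand), part of the stalk base, was low in the cKO replicate 1 libraries, at 135 CPM in rTreg and 85.3 CPM in aTreg, against 558 to 921 CPM in the other 6. Rps27a (chr11:29545846-29548109, minus strand), made as a fusion with ubiquitin, was higher in replicate 2 of rTreg (180 and 378 CPM in WT, 199 and 361 CPM in cKO) and lower in replicate 2 of aTreg cells (240.5 and 155 CPM in WT, 296 and 151 CPM in cKO). For the first 3 genes the libraries that stood apart were those of 1 genotype and 1 replicate number in both subsets. The cause was not tested. All 43, 69 and 77 calls given above came from the other 82 members, and without these 4 genes the ratio of shares between cKO and WT rTreg was 1.17 in place of 1.18.

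**Figure D4:**
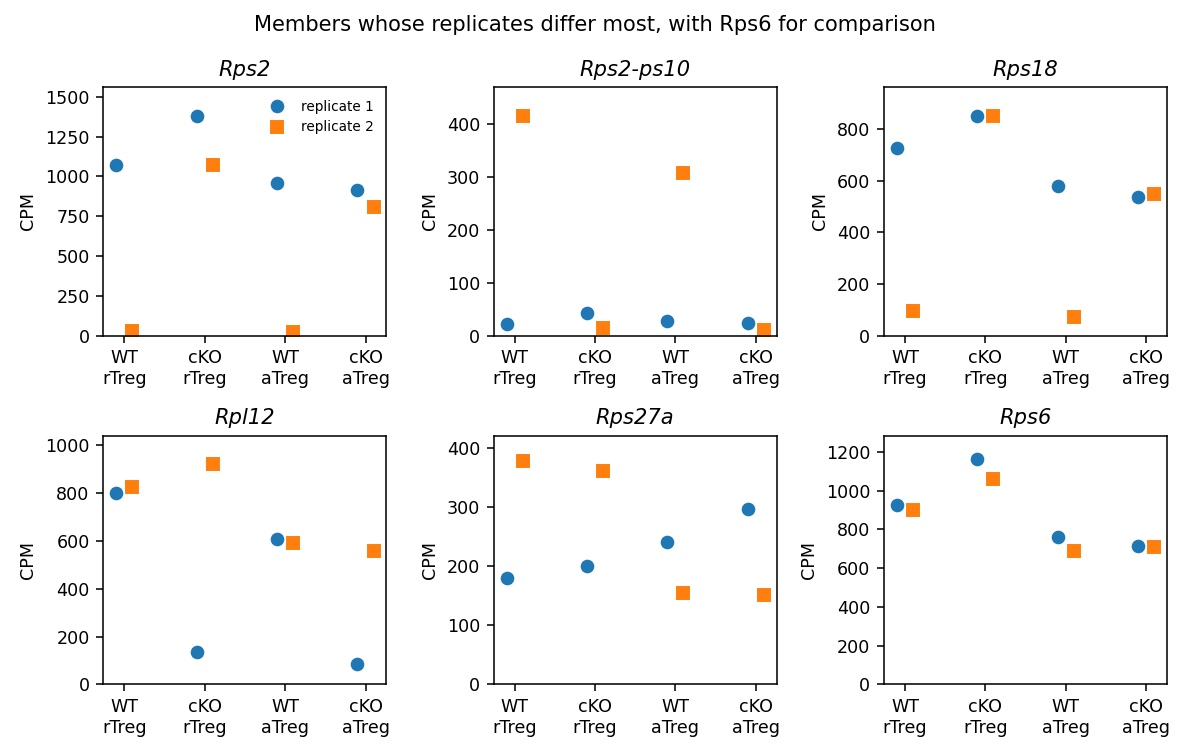
CPM of Rps2, the row named Rps2-ps10, Rps18, Rpl12, Rps27a and, for comparison, Rps6 in each library (y axes from 0), with circles for replicate 1 and squares for replicate 2. The WT replicate 2 libraries are low for Rps2 (31.8 and 24.4 CPM) and Rps18 and high for Rps2-ps10 (414 and 307 CPM), and the cKO replicate 1 libraries are low for Rpl12.

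Paralogs did not all move with the genes they resemble. Rps27l, a p53-induced relative of Rps27, was at 16.3 and 17.8 CPM in WT rTreg and 19.8 and 20.4 CPM in WT aTreg cells, a log2 value of 0.23 ± 0.12 (adjusted p = 0.169). Rps27 itself fell, from 278 and 293 to 231 and 232 CPM (-0.30 ± 0.06, adjusted p = 0.00469). In cKO cells Rps27l had an estimate of 0.32 ± 0.11 (adjusted p = 0.0609) and Rps27 fell by 0.51 ± 0.06 (adjusted p = 2.88e-04). Rpl22l1, which can replace Rpl22 in ribosomes, was at 35.6 and 37.5 CPM in WT rTreg and 38.5 and 43.1 CPM in WT aTreg (0.17 ± 0.11, not called), whereas Rpl22 fell from 313 and 311 to 269 and 259 CPM (-0.24 ± 0.07, adjusted p = 0.0329). The differences between the paralogs of a pair were not tested. Rpl36al fell like Rpl36a, by 0.22 ± 0.07 and 0.34 ± 0.07 in WT and by 0.41 ± 0.07 and 0.63 ± 0.07 in cKO cells (adjusted p from 3.23e-04 to 0.0491). Rpl7l1 stayed between 72.2 and 78.2 CPM in all 8 libraries, while Rpl7 fell by 0.40 ± 0.04 in WT and by 0.57 ± 0.04 in cKO cells (adjusted p = 4.33e-04 and 5.65e-05). Rpl3l, Rpl39l and Rps4l, at 19 to 115 counts over 8 libraries, were not compared.

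Annotated pseudogenes and rows with -ps names can share sequence with other members. How reads were assigned between them was not examined. Across members, the share of 50-base windows found in other genes' transcripts had a median of 35.0% and a range from 0 to 95.1%. The 25 members with at least 50% shared windows had a median log2 fold change of 0.23 between genotypes in rTreg cells, and the 61 others 0.23. For aTreg against rTreg in cKO cells these medians were -0.63 and -0.60. The 182 rows with -ps names held 0.159 to 0.346% of counts. Genes with other names that share windows with members, such as Gm10288 with Rpl11, were not in this sum. The 43 shorter members (374 to 1659 bases) and the 43 longer ones (1662 to 6270 bases) had medians of 0.22 and 0.23 for the genotypes in rTreg cells, with 15 and 28 calls.

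Other genes of the translation machinery were read from lists by function, and Pabpc1, Eef2 and others stand in more than 1 list. Rack1, a signalling scaffold of the 40S subunit, went from 1204 and 1216 CPM in WT rTreg to 1602 and 1447 CPM in cKO rTreg cells (0.33 ± 0.06, adjusted p = 0.0113), and Fau, which encodes the 40S protein eS30, from 644 and 589 to 787 and 687 CPM (0.26 ± 0.05, adjusted p = 0.0244). Of 20 other 5′ TOP mRNAs 8 rose and none fell in cKO rTreg cells, with a median log2 fold change of 0.17 and 2 lower at an unadjusted p under 0.05. For this and the following lists, 6.57% of all genes were called higher and 5.45% lower in this comparison. Among them Pabpc1, the poly(A)-binding protein, rose from 1404 and 1518 to 1847 and 1912 CPM (0.36 ± 0.04, adjusted p = 0.00272), and Eef2, the translocase, from 3991 and 3810 to 5245 and 4489 CPM (0.32 ± 0.06, adjusted p = 0.0158). Of the initiation factors, 7 of 39 rose and 1, Eif1, fell (-0.26). Of the elongation and termination factors 3 of 11 rose, namely Eef2, Eef1g and Eef1a1, and of 21 RNA polymerase I genes none was called, with 2 higher and 1 lower at an unadjusted p under 0.05.

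Among 95 ribosome biogenesis genes 7 rose and none fell in cKO rTreg cells, with a median of 0.03 and 1 lower at an unadjusted p under 0.05. Of all genes 6.57% were called higher, so this count is near the background. Wdr12, of the PeBoW complex that matures the 60S subunit, had 26.2 and 31.0 CPM in WT and 49.4 and 56.8 CPM in cKO rTreg cells (0.89 ± 0.10, adjusted p = 0.00261), and Tex10 rose by 0.57 ± 0.06 (adjusted p = 0.00255). Of 33 genes of the mTORC1 pathway and of TOP control, 4 rose (Larp1, Sesn2, Lamtor5 and Rps6kb2) and 4 fell (Sesn1, Eif4ebp1, Ddit4 and Tsc1). Sesn1, a leucine-sensing inhibitor of mTORC1, had 153 and 206 CPM in WT and 89.6 and 103 CPM in cKO rTreg cells (-0.89 ± 0.07, adjusted p = 6.98e-04). Its relative Sesn2 went the other way (0.95 ± 0.17, adjusted p = 0.0152). Larp1 was at 475 and 434 against 600.4 and 552 CPM (0.34 ± 0.05, adjusted p = 0.00944). Eif4ebp1, a translation repressor, was at 7.92 and 7.31 against 3.98 and 3.83 CPM (-0.96 ± 0.17, adjusted p = 0.014). In aTreg cells Sesn1 fell by 1.10 on the log2 scale (adjusted p = 5.98e-04).

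Mitochondrial ribosomes and the proteasome were read in the same way. Of 79 mitochondrial ribosomal protein genes 6 rose and none fell in cKO rTreg cells, with a median of 0.18, a count near the 6.57% of all genes called higher. Of 38 proteasome subunits 12 rose and none fell, with a median of 0.23, against the same 6.57% higher and 5.45% lower of all genes. No gene of either list was lower at an unadjusted p under 0.05. In aTreg cells the proteasome median for cKO against WT was 0.13, with 2 called higher (Psma1 and Psmb5) against 4.11% of all genes, beside -0.04 for the ribosomal proteins. For aTreg against rTreg in WT and in cKO cells, the medians were 0.03 and -0.08 for proteasome subunits, -0.02 and -0.14 for mitochondrial ribosomal proteins, -0.20 and -0.38 for other 5′ TOP mRNAs, and -0.22 and -0.32 for biogenesis genes. Of the biogenesis genes 35 and 53 of 95 fell and none rose (0 and 1 higher at an unadjusted p under 0.05), and of the other 5′ TOP mRNAs 11 and 15 of 20 fell, against 13.6% and 18.2% of all genes called lower and 18.2% and 21.9% called higher. Nap1l1, a histone chaperone, rose in aTreg cells of both genotypes, by 0.23 and 0.46, and Vim, an intermediate filament protein, rose in cKO aTreg cells by 0.76. Differences between lists were not tested.

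**Figure D5:**
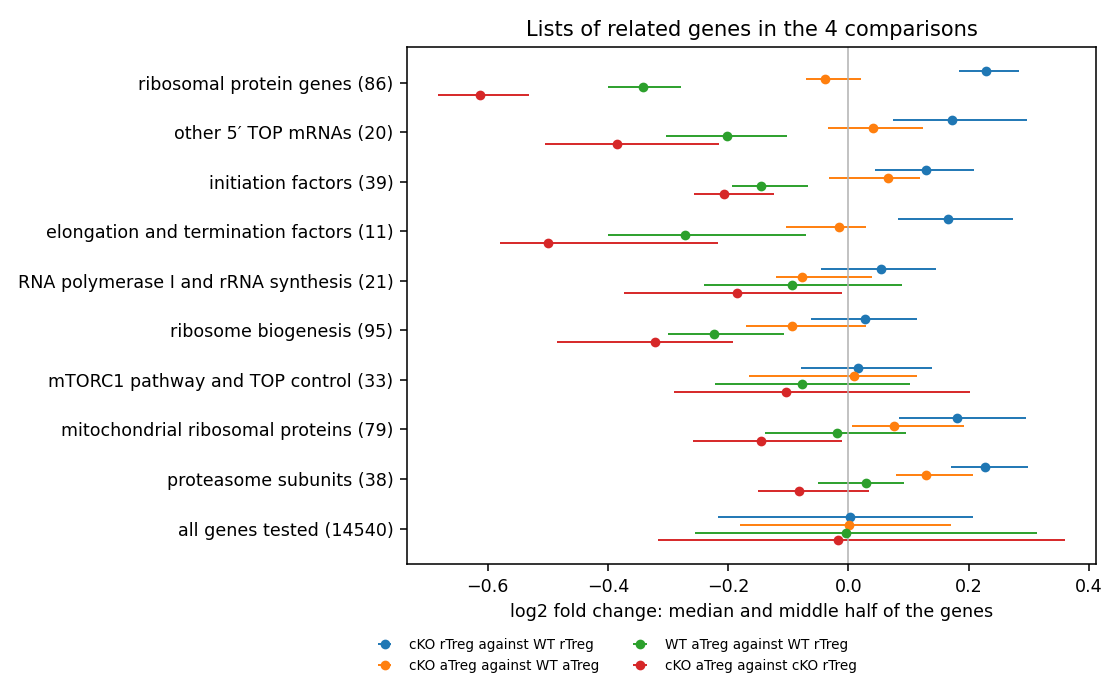
Median log2 fold change (points) and middle 50% of the genes (bars) for the ribosomal protein genes, 8 lists of related genes and all genes tested, in the 4 comparisons, with the number of genes in brackets. The ribosomal protein medians are 0.23, -0.04, -0.34 and -0.61, and the medians of all genes lie between -0.02 and 0.00.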

How the data were processed

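Gene counts and FPKM values for 8 libraries were used as deposited. Per the labels, libraries were made with the NEBNext Ultra RNA kit, which in its standard form does not mark strand. According to the paper's methods, reads were trimmed and duplicates were removed with Picard. The submitters' processing notes name HISAT2 2.0.5, HTSeq and the genome build mm10. The deposited counts are whole reads per gene, and the authors' FPKM values divide them by the library total and 1 length per gene. Removing duplicates can lower the counts of abundant short transcripts, and htseq-count by default leaves out reads that match several places, which many ribosomal protein reads do.

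Counts were tested with edgeR 4.0.16 in R 4.3.3 (quasi-likelihood F test, TMM factors, filterByExpr with a minimum count of 10, 14540 genes, all 8 libraries, Benjamini-Hochberg adjustment over all genes tested, called under 0.05), with the replicate number as a block, after the study's paired analysis. Deviations of same-numbered libraries from their group means correlated over all genes at r = 0.389 to 0.632 in all 6 pairs of groups. Over the ribosomal protein genes alone, r was 0.0616 to 0.234 between groups of different genotype, with 0.234 for WT and cKO rTreg. Between rTreg and aTreg of the same genotype, r over these genes was 0.939 in WT and 0.753 in cKO. All members entered these r. Among them, replicates of Rps2 and Rps18 differed by 2.93 to 5.27 on the log2 scale in WT and by at most 0.36 in cKO. Those of Rpl12 differed by 2.70 and 2.76 in cKO and by at most 0.05 in WT. Values of r without these genes were not computed. Differences within a replicate number used log2 of CPM plus 0.5. The code was tested on simulated data. Alternatives were DESeq2 1.42.0, limma 3.58.1 (voom), other scalings, no filter, a length trend removed (lowess span 0.3), no block and leaving out each library. Chi-square per degree of freedom between replicates was 15.6 to 24.0, so none was a repeat deposit. Genes were matched by identifier to GENCODE M21 (GRCm38, the same assembly as mm10). Members named with values were the 5 highest and 5 lowest in FPKM, the 3 largest changes each way per comparison, paralog pairs and members with known separate roles, and in each list the genes with the smallest p. The genes and lists were chosen with earlier results of these data known. Called genes of a list counted at 5 or fewer were named after their values were seen. Values of a few genes that this rule would name are not reported here.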

Additional observations from a re-analysis of the deposited data

How the results depend on the processing

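No called ribosomal protein gene changed direction under an alternative, but the median in cKO against WT aTreg cells (-0.04) ranged from -0.07 to 0.01 without 1 library and was above 0 without WT aTreg replicate 1. Calls in cKO against WT rTreg cells (43 higher) were the least stable: 0 in the unpaired fit without the replicate block, 23 with the length trend removed and 1 to 46 without 1 library, the counts of 1 and 2 coming from leaving out an rTreg library. Without a filter on low counts 1 member was called lower there, and in aTreg cells 2 higher and 3 lower. The single lower call in aTreg cells (Rpl30) became 0 without the replicate block and with median-of-ratios size factors, and without 1 library there were 0 to 1 higher and 0 to 1 lower. In WT aTreg against rTreg, 45 were lower without the block and 45 to 68 without 1 library. In cKO cells 1 was higher with library totals alone and 1 with the length trend removed. For the genotype effect in aTreg minus that in rTreg, DESeq2 called 10 lower, library totals 2, no filter 15, and leaving out 1 library 0 to 1. The block changed no other call count by over 1.5 times. The cause of these shifts was not tested. The median in cKO against WT rTreg moved to 0.20 with library totals, 0.21 without a filter, 0.18 with the length trend removed and 0.20 to 0.24 without 1 library. In cKO aTreg against rTreg it moved to -0.57 with library totals, -0.57 without a filter, -0.58 with the length trend removed and -0.65 to -0.58 without 1 library. On FPKM the share ratio was 1.13 for cKO against WT rTreg and 0.699 for cKO aTreg against rTreg. The alternative without Rps2, Rps18, Rpl12 and Rps27a was chosen after seeing the data. Leaving out a library leaves 1 in its group, which is then assumed to vary like the others. With 2 libraries per group, small shifts of single genes are near the limit of the test.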
